A study of Danio rerio with 7 samples.

Results

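Zebrafish melanoma cells of the melanocytic state were divided by whether tyrp1b was read in them, and the 2 groups were described across genes. The cells came from 1 single-cell RNA-seq library, in which the study's own annotation put 579 of 2678 melanoma cells in the melanocytic state and 1290 further cells in the tumor microenvironment (TME), 3968 cells in all. Of the 579 cells, 486 held at least 2000 raw UMIs (unique molecular identifiers, one per captured RNA molecule). In these, tyrp1b was at 1 or more in 323 cells and at 0 in 163 cells, which are called cells with and without tyrp1b below. The values of tyrp1b chose both groups and the state itself was clustered from the same cells, so all differences below are descriptions and none was tested. A value of 0 means that tyrp1b was not read in a cell, not that the cell lacked it.

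The library was made from tumors of 6 adult fish, 3 male and 3 female, pooled in 1 reaction. The host was casper (mitfa-/-;mpv17-/-), p53-/- and carried mitfa:BRAFV600E, and tumors were started in the skin by TEAZ (transgene electroporation in adult zebrafish) with MinicoopR-tdT, mitfa:Cas9, U6:sgptena, U6:sgptenb and Tol2. Every cell described here shares this background, and the fish a cell came from is not given in the labels. The mitfa promoter drives both BRAFV600E and Cas9, so both are made where that promoter is active. The casper host lacks melanophores and iridophores but keeps xanthophores, so a xanthophore of the host could in principle be captured beside tumor cells.

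Adult zebrafish carry several pigment cell types that descend from the neural crest. Melanophores make melanin in melanosomes with the enzymes of the tyrosinase family, of which tyrp1b is a member. Xanthophores are yellow and store pteridines and carotenoids. The product of gch2, a GTP cyclohydrolase, opens the pteridine pathway, which also yields tetrahydrobiopterin, the cofactor with which phenylalanine hydroxylase (pah) makes tyrosine, the starting material of melanin. The gch2 gene is a marker of xanthophores and their precursors, and the question put to these cells was whether the melanocytic state mixes melanophore-like with xanthophore-like cells.

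Values are the corrected counts of the deposited table, in which counts were adjusted to a common depth, so they are not molecules and a cell's corrected total ranged only from 5400 to 9687. Raw depth was known for each cell: the median was 12917 raw UMIs (2032 to 93291) with tyrp1b and 11037 (2075 to 55994) without it. The median share of raw UMIs from mitochondrial genes was 1.1% and 1.02%. The deposited ribosomal share of a cell's raw UMIs had a median of 29.4% with tyrp1b and 35.4% without it. Beside shares of cells stand 95% intervals (Clopper-Pearson, exact), which hold counting error alone.

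tyrp1b was above 0 in 66.5% of the 486 cells (62.1 to 70.7%). Where it was read, its value ranged from 1 to 456 corrected counts with a median of 18 and quartiles of 5 and 46.5. In TME cells, which should lack it, the share was 6.94% at a median of 7102 raw UMIs, and in the other melanoma states it was 6.77 to 15.1%. The edge of the rule was thinly filled, with 27 cells at exactly 1 and 15 at exactly 2. Cells at exactly 1 resembled cells at 0 in pmela (mean 21 against 20.4) and in the share with gch2 (29.6%, 13.8 to 50.2%, against 37.4%), and were higher in tyrp1a (2.59 against 1.54) and slc39a10 (5.74 against 3.15). The depth limit fell between a cell of 1990 raw UMIs left out and one of 2032 kept. Among the 93 cells left out, 72 had tyrp1b above 0, in values that the correction to a common depth had scaled up.

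gch2 was found mainly in the cells that held tyrp1b. It was above 0 in 206 of 323 cells with tyrp1b (63.8%, 58.3 to 69.0%) and in 61 of 163 without it (37.4%, 29.98 to 45.3%). In TME cells the share was 3.01%, and in the other 4 melanoma states it was 4.52 to 11.9%, so both melanocytic groups stood above these. Over all cells of a group the median was 2 corrected counts with tyrp1b (quartiles 0 and 10, highest 110) and 0 without it (quartiles 0 and 1, highest 17), and the ranges overlapped from 0 to 17. The mean was 8.57 against 1.20 corrected counts, a log2 ratio of 2.84 between the gene's shares of all corrected counts. High values lay on one side: 113 cells with tyrp1b and 11 without it held more than 5 corrected counts of gch2, and all 37 cells above 20 held tyrp1b (100%, 90.5 to 100%).

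**Figure D1:**
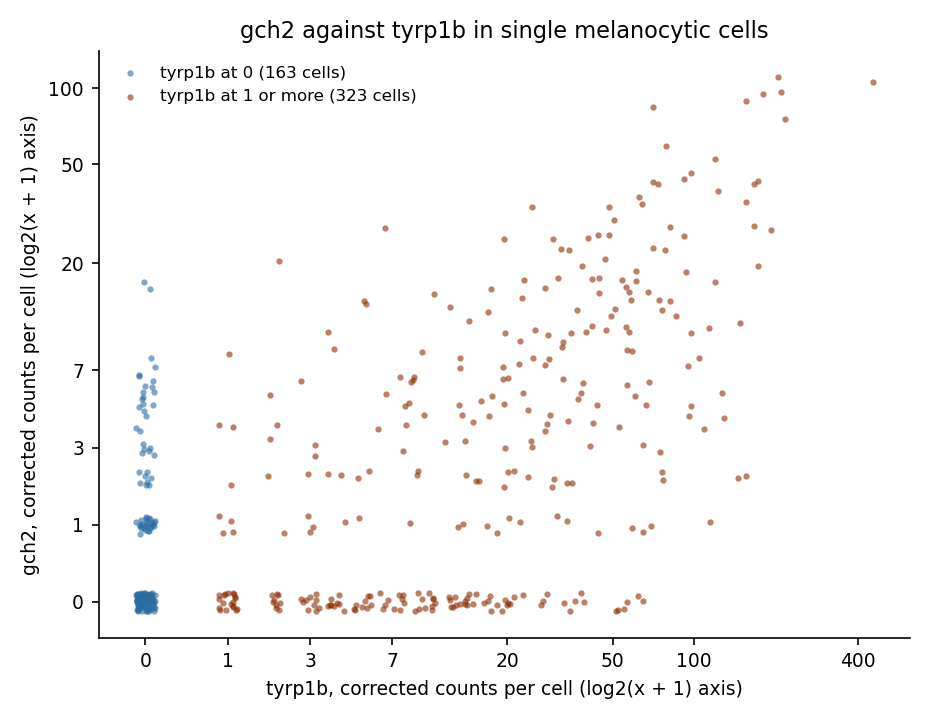
Corrected counts of gch2 (vertical axis) against tyrp1b (horizontal axis) in each of the 486 melanocytic cells, on log2(x + 1) axes with a small random shift so that equal values can be told apart; blue points are the 163 cells without tyrp1b, brown points the 323 with it. The cells highest in gch2, up to 110, lie to the right among cells high in tyrp1b, while cells at 0 for tyrp1b reach 17.

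Counted by cell, the state held 206 cells with both genes (42.4%, 37.9 to 46.9%), 117 with tyrp1b only (24.1%, 20.3 to 28.1%), 61 with gch2 only (12.6%, 9.74 to 15.8%) and 102 with neither (21%, 17.5 to 24.9%). Cells with both genes had a median of 13410.5 raw UMIs, cells with gch2 only 13377, cells with tyrp1b only 12403 and cells with neither 10205. Droplets that held more than 1 cell were not searched for. Cells with tyrp1b held 93.4% of all gch2 corrected counts (2768 of 2963). Read the other way, tyrp1b was above 0 in 77.2% (71.6 to 82.1%) of the 267 cells with gch2 and in 53.4% (46.6 to 60.2%) of the 219 without it. The signal was uneven, since the 50 cells highest in gch2 held 63.6% of its counts. The cell highest in gch2 held 110 corrected counts of it beside 203 of tyrp1b and 128 of pmela, and the tenth held 49 beside 91 and 83. The 10 cells highest in gch2 each held at least 73 corrected counts of tyrp1b and at least 60 of pmela.

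The 61 cells with gch2 only were the candidates for a separate xanthophore-like group in this library. Of these 61, 27 held exactly 1 corrected count of gch2 and 11 held more than 5. Among cells with both genes, 24 held exactly 1 and 113 more than 5. Since the correction to a common depth can place single counts, membership of those 27 cells is uncertain. The values given here and below for cells with gch2 only include them. Mean pmela, the amyloid matrix protein of the melanosome, was 65.2 corrected counts in cells with both, 35.6 with tyrp1b only, 28.6 with gch2 only and 15.6 with neither. Mean slc2a15b, a transporter-like gene needed for xanthophore pigment in medaka, ran 1.66, 0.547, 0.344 and 0.294 in the same order. slc2a15b was thus no higher in cells with gch2 only than in cells with tyrp1b only, and was highest where both were present. The median summed value of the xanthophore list without gch2 was 8, 6, 5 and 5 corrected counts, and that of the melanophore list without tyrp1b was 95.5, 47, 39 and 28. Of the 124 cells with more than 5 corrected counts of gch2, 120 (96.8%) also held more than 5 of pmela and 113 (91.1%, 84.7 to 95.5%) held tyrp1b.

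The genes that set xanthophores apart were near 0 in both groups. aox5, an aldehyde oxidase of the pteridine pathway and a defining xanthophore gene, was read in 1 of 323 cells with tyrp1b and in 0 of 163 without it, where 3 counts of the total would allow a count in up to 1.84% of cells. This limits cells in which the gene was read, not cells that express it. csf1ra, the receptor kinase on which xanthophores depend and which macrophages also carry, was read in 0 of 323 cells (up to 0.929% by the same limit) and in 3 of 163 (1.84%, 0.381 to 5.28%), against 225 of 965 TME cells (23.3%). pax7a, a transcription factor of the xanthophore fate, was read in 10 cells with tyrp1b (3.10%) and 7 without it (4.29%), never above 1 corrected count, against 16.4% of inflammatory-state cells and 4.15% of TME cells. Any of aox5, csf1ra, pax7a and pax7b was above 0 in 11 of 323 cells (3.41%, 1.71 to 6.01%) and in 9 of 163 (5.52%, 2.56 to 10.2%), and the intervals overlap. By class these were 10 of the 206 cells with both genes (4.85%), 1 of the 117 with tyrp1b only, 1 of the 61 with gch2 only (1.64%) and 8 of the 102 with neither (7.84%). A set of cells with gch2, these genes and no tyrp1b was not detectable at this depth. aox5 was above 0 in only 4 cells with at least 2000 raw UMIs in the whole library, so no group in it was rich in that gene.

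Of the 15 listed xanthophore genes, 14 were in the table and 7 reached a summed value of 50 over both groups. At least 2-fold higher with tyrp1b were 4 of these 7 and at least 2-fold lower were 0, beside 4.18% higher, 1.62% lower and 5.8% either way among all 5934 genes with a sum of at least 50; since tyrp1b chose the groups, nothing is read from the difference. The median log2 ratio was 1.1 over the 7 genes and 0.71 over the 6 without gch2, beside 0.05 over all genes. With the fainter members of a sum of at least 10 let in, these medians were 0.32 and 0.31. slc2a15b had a mean of 1.26 against 0.313 corrected counts (log2 ratio 2.00, highest value 12 against 3) and was above 0 in 56.0% against 24.5% of cells. akr1b1, an aldo-keto reductase, averaged 0.647 against 0.172 (log2 ratio 1.90). The gene qdpra encodes the reductase that regenerates tetrahydrobiopterin, and it averaged 2.60 against 1.22 (log2 ratio 1.1, 74.6% against 47.9% of cells). The other members with a sum of 50 stayed within 2-fold: sox5, a transcription factor, at 0.854 against 0.687, the transporter gene slc2a11b at 1.49 against 1.21, and pcbd1, which recycles the pterin cofactor, at 1.51 against 1.31. The 7 members under a sum of 50 were pts, aox5, csf1ra, pax7a, pax7b, scarb1 and bco1. pts, the enzyme after gch2 in the pathway, was above 0 in 4.02% against 5.52% of cells, scarb1, which takes up carotenoids, in 3.41% against 0.613%, and bco1, which cleaves carotene, in 1.55% against 3.68%.

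Chosen after its values were seen, pah, which uses the cofactor that gch2 and qdpra supply and regenerate, averaged 1.56 corrected counts with tyrp1b and 0.485 without it (log2 ratio 1.69). It was above 0 in 48.6% and 22.7% of cells, with a highest value of 11 in both groups, and in 1.45% of TME cells.

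**Figure D2:**
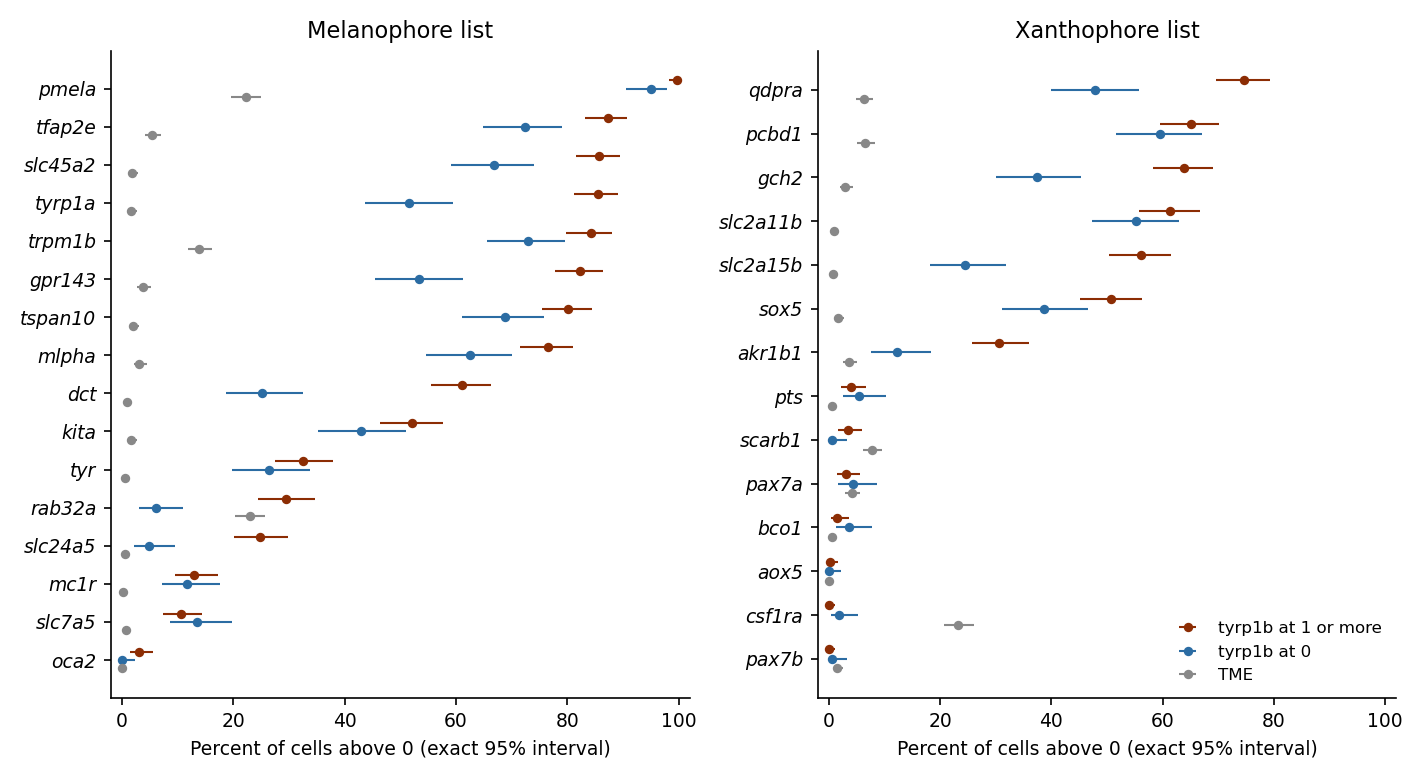
Percent of cells above 0 (horizontal axis) for the melanophore list (left) and the xanthophore list (right) in 323 cells with tyrp1b (brown), 163 without it (blue) and 965 TME cells (gray); bars are exact 95% intervals. On the right gch2 stands at 63.8%, 37.4% and 3.01%, while aox5 and pax7b lie near 0 in all 3 groups and csf1ra rises above 2% only in TME cells.

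Melanosome genes other than tyrp1b were higher in the same cells. Without tyrp1b itself, 17 of 19 listed melanophore genes were in the table and 15 reached a sum of 50; 7 were at least 2-fold higher (4.18% of all genes), 0 were at least 2-fold lower (1.62% of all genes), 14 lay above 0, as did 54.8% of all genes, and the median log2 ratio was 0.74. pmela had a median of 41 corrected counts with tyrp1b (quartiles 22 and 73, highest 490) and 16 without it (quartiles 7.5 and 25.5, highest 111), a log2 ratio of 1.42 over the means of 54.5 and 20.4. It was at 0 in 1 cell with tyrp1b and in 8 without it, so nearly every cell without tyrp1b still held this melanosome gene, against 22.2% of TME cells. tyrp1a, the paralog of tyrp1b, had a median of 4 against 1 (highest 53 against 15, log2 ratio 1.94). Reads that could come from either paralog may have been split between them in counting, so their ratios are not independent of each other. dct, which acts on dopachrome in melanin synthesis, averaged 1.39 against 0.337 (log2 ratio 2.04, 61.0% against 25.2% of cells).

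Among the transport and trafficking members, rab32a, a small GTPase that delivers enzymes to melanosomes, averaged 0.471 against 0.0613 (log2 ratio 2.88), and slc24a5, a melanosomal cation exchanger, 0.344 against 0.0491 (log2 ratio 2.73). Both ratios rest on small sums without tyrp1b, 10 corrected counts in 10 cells for rab32a and 8 in 8 cells for slc24a5. rab32a was also above 0 in 22.9% of TME cells and in 71.0% of inflammatory-state cells. Its mean in the inflammatory state was 2.18, above that of the cells with tyrp1b. The melanosomal receptor gene gpr143 averaged 3.37 against 1.31 and the transporter gene slc45a2 3.34 against 1.60, log2 ratios of 1.37 and 1.07. In the inflammatory state gpr143 averaged 2.34. Members within 2-fold were tfap2e (0.74), tspan10 (0.74), the receptor kinase gene kita (0.72), the melanosome transport gene mlpha (0.56), the channel gene trpm1b (0.44), tyrosinase itself, tyr (0.40), and the melanocortin receptor gene mc1r (0.19), as log2 ratios. slc7a5, an amino acid transporter gene, was the one member below 0, at -0.60. oca2 had a sum of 15 corrected counts, in 10 cells with tyrp1b and 0 without it, and is given no ratio.

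The level of tyrp1b, and not only its presence, went with gch2, pmela and slc2a15b, but not with every pigment gene. In cells with 0, 1 to 5, 6 to 20, 21 to 50 and above 50 corrected counts of tyrp1b (163, 84, 90, 72 and 77 cells), gch2 was above 0 in 37.4%, 35.7%, 50%, 81.9% and 93.5%. Its mean ran 1.20, 1.55, 3.10, 8.06 and 23.1 corrected counts, so cells low in tyrp1b held about as much gch2 as cells without it and the higher means lay above 5. Mean pmela ran 20.4, 27.1, 34.9, 63.5 and 98.9 and mean slc2a15b 0.313, 0.5, 0.667, 1.57 and 2.48. Some members of the lists did not follow this order. Mean trpm1b ran 3.59, 5.24, 3.33, 4.86 and 6.13, mean slc2a11b 1.21, 0.94, 1.19, 2.08 and 1.87, and mean pcbd1 1.31, 1.44, 1.36, 1.33 and 1.95. The median depth of the 5 classes was 11037, 13831.5, 13075, 11342 and 13889 raw UMIs, which did not follow the order of tyrp1b. Over the 486 cells, which share 1 library, Spearman's rho with tyrp1b was 0.65 for pmela, 0.62 for spock3, 0.60 for tyrp1a, 0.56 for gch2, 0.48 for slc2a15b and 0.04 for raw UMIs. Spearman's rho of gch2 with pmela was 0.51 and with raw UMIs 0.05.

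**Figure D3:**
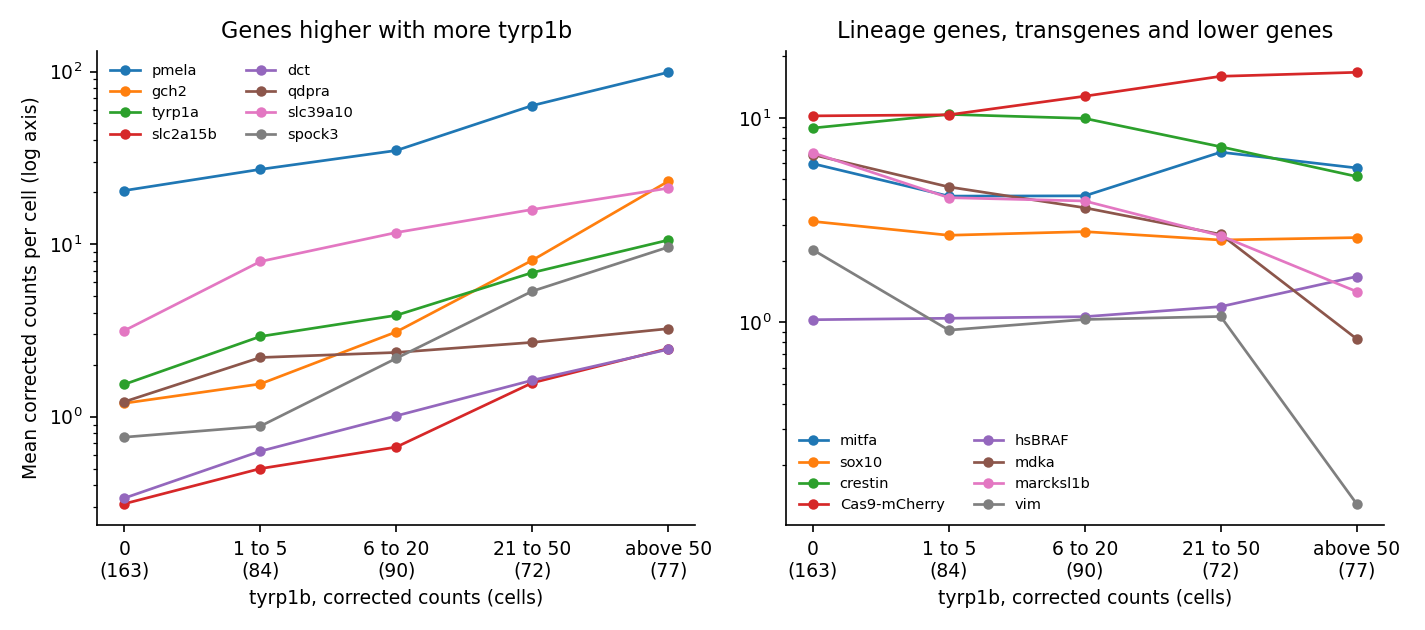
Mean corrected counts per cell (vertical log axis) in 5 classes of tyrp1b level (horizontal axis, number of cells in parentheses), for genes higher with tyrp1b (left) and for lineage genes, transgenes and genes lower with it (right). Mean gch2 runs from 1.20 at tyrp1b 0 to 23.1 above 50, while mean mitfa stays between 4.14 and 6.79.

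Depth was not the same in the 2 groups, so shares were also taken within 4 bands of raw depth of nearly equal size. tyrp1b was above 0 in 61.5%, 64.5%, 66.1% and 73.8% of cells from the shallowest to the deepest band. gch2 was above 0 in 64.0%, 61.5%, 65.0% and 64.4% of cells with tyrp1b and in 31.9%, 34.9%, 41.5% and 43.8% of cells without it. The share with gch2 was thus higher with tyrp1b in each of the 4 bands. Its intervals were apart only in the shallowest band (52.1 to 74.8% against 19.1 to 47.1%). In the other bands they overlapped, as in the deepest (53.7 to 74.3% against 26.4 to 62.3%).

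Lineage regulators and transgenes were present in both groups. Of 17 regulators in the table, 13 reached a sum of 50, 0 lay past 2-fold either way (5.8% of all genes) and the median log2 ratio was -0.13. mitfa, the master regulator of the melanocyte lineage, had a median of 3 corrected counts in both groups and means of 5.11 with tyrp1b and 5.97 without it (log2 ratio -0.22). sox10, a neural crest regulator upstream of mitfa, averaged 2.65 against 3.12. Since MinicoopR carries a mitfa minigene, reads from the rescue copy and the host gene were not separated. The Cas9-mCherry feature was above 0 in 98.5% of cells with tyrp1b and 98.8% without it, with medians of 11 and 9 corrected counts (highest 145 and 47), against 19.1% of TME cells and 29.0% of inflammatory-state cells. It averaged 16.2 in cells with both genes, 9.60 with tyrp1b only, 11.8 with gch2 only and 9.30 with neither. The human BRAF transgene (hsBRAF) was above 0 in 59.4% and 54.6% of cells against 1.14% of TME cells. The cells with gch2 only carried the transcripts of the electroporated Cas9 at a mean no lower than the cells with neither gene. Mean hsBRAF was 1.252 with both genes, 1.205 with tyrp1b only, 0.918 with gch2 only and 1.098 with neither, given without intervals. The host itself carries mitfa:BRAFV600E, so hsBRAF does not tell tumor cells from host cells. Whether the cells with gch2 only came from the tumor or the host was not tested.

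Iridophores, the reflective pigment cells, were checked because they share purine and regulator genes with the other types. Of 12 listed genes in the table, 5 reached a sum of 50 and 1 of them, apoda.1, was at least 2-fold higher (4.18% of all genes). All 5 lay above 0, as did 54.8% of all genes, and their median log2 ratio was 0.88. The melanophore list without tyrp1b stood at 0.74 and the xanthophore list without gch2 at 0.71, so a higher median was not particular to those 2 lists. The iridophore median rests on few cells, however. alx4a was read in 13 cells with tyrp1b and 7 without it, with highest values of 38 and 11 corrected counts. apoda.1 was read in 23 and 8 cells, and impdh1b in 18.0% and 17.8%. Of the 5 genes, only pnp4a was read in most cells of both groups. pnp4a, a purine enzyme gene abundant in iridophores, had a median of 4 against 2 corrected counts and a mean of 5.72 against 3.10 (log2 ratio 0.89), against 7.17 in the inflammatory state. The defining iridophore genes ltk and alx1 were at 0 in both groups, and alx4a was above 0 in 4.02% and 4.29% of cells against 95.1% of inflammatory-state cells. Purine synthesis genes had a median log2 ratio of -0.02 over 9 genes, with 0 past 2-fold either way (5.8% of all genes).

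Across all genes, 248 of the 5934 were at least 2-fold higher with tyrp1b (4.18%) and 96 at least 2-fold lower (1.62%), with quartiles of the log2 ratio at -0.23 and 0.34. With ribosomal protein genes left out of the totals, the median of all genes shifted from 0.05 to -0.08 and the split from 72.1% to 55.9% higher among genes past 2-fold, 184 higher and 145 lower. Under that scaling 6 melanophore and 3 xanthophore genes stayed at least 2-fold higher and 0 of either list were lower.

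Outside the marker lists, the genes with the largest ratios upward were read in part of the cells. alkal2b, a ligand of receptor tyrosine kinases of the Alk and Ltk family, was above 0 in 69 of 323 cells with tyrp1b and 2 of 163 without it (21.4% and 1.23%), and is given no ratio because its sum without tyrp1b was 2 corrected counts. lmo7a was above 0 in 76 and 8 cells (log2 ratio 3.62). The zinc transporter gene slc39a10 was read in most cells, with a median of 10 against 1 corrected counts (highest 83 against 26, log2 ratio 2.14). viml averaged 4.44 and 0.865 corrected counts (log2 ratio 2.36) and spock3, a matrix proteoglycan gene, 4.31 and 0.761 (2.5). FP085398.1, sccpdha, tnfsf10l3 and ptgr1 had log2 ratios of 2.64, 2.38, 2.17 and 2.05. ccka, a cholecystokinin precursor gene, behaved otherwise: it was above 0 in 45 and 10 cells, and its mean over the 5 classes of tyrp1b was 0.350, 1.20, 3.12, 3.10 and 0.468, so it was low again in the cells highest in tyrp1b.

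The 12 genes with the largest ratios downward included vim, mdka and id1. vim, an intermediate filament gene of migratory and mesenchymal cells, had a median of 0 with tyrp1b and 1 without it (highest 34 and 33, means 0.796 and 2.26, log2 ratio -1.50) and averaged 0.130 in cells above 50 for tyrp1b. Its mean was 19.1 in the stressed and 28.2 in the invasive state, so the cells without tyrp1b were far below those states. mdka, a secreted growth factor of the midkine family, had a median of 0 against 3 (means 3.01 and 6.60, log2 ratio -1.13) and its mean ran 6.60, 4.60, 3.63, 2.69 and 0.831 over the 5 classes of tyrp1b. id1 and her6, both transcriptional regulators, had log2 ratios of -1.63 and -1.51 and were above 0 in 25.8% and 11.7% of cells without tyrp1b. rgs5b, which dampens G protein signaling, and the sodium channel gene scn4ab had log2 ratios of -1.81 and -1.58. fthl28, ramp2, efhd1, rpl22l1, pdxka and pdgfrl lay between -1.32 and -1.13. With only cells between the 25th and 75th percentile of raw UMIs, rgs5b was at -1.13, and mdka (-0.89), fthl28 (-0.62), ramp2 (-0.93), efhd1 (-0.95) and pdgfrl (-0.77) came within 2-fold, as rpl22l1 did (-0.95) with no minimum of raw UMIs. By class, id1 averaged 3.90 in cells with gch2 only against 0.912 in cells with neither, so its higher level without tyrp1b came mostly from the former.

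At a sum of at least 50, the lists for metabolism, stress and the cell cycle had medians nearer to 0 than the melanophore and xanthophore lists. At a sum of at least 10 the stress and immediate early median was 0.39 and the xanthophore median 0.32. The lipid droplet list stood at -0.37, over only 3 genes. For oxidative phosphorylation, the nuclear genes stood at a median log2 ratio of 0.16. Of these 83 genes, 66 lay above 0, beside 54.8% of all genes, and 1 was at least 2-fold higher (4.18% of all genes). ndufs8a and cox6b1 were at 0.85 and 0.56 and cox4i2 at -0.46. The tricarboxylic acid cycle stood at 0.16 over 21 genes, fatty acid oxidation at 0.19 over 30, the mitochondrially encoded genes at 0.20 over 12 and glycolysis at 0.13 over 16. Without ribosomal protein genes in the totals these 5 medians were 0.03, 0.03, 0.06, 0.07 and 0.00. The median of all genes shifted with them, from 0.05 to -0.08. Their distance from 0 thus depends on the scaling, and their place above the median of all genes does not. Ribosomal protein genes had a median of -0.29, with 4 of 81 above 0 (54.8% of all genes). Stress and immediate early genes stood at 0.37 over 30 genes, with gadd45bb at 0.94, dusp1 at 0.70 and atf3 at -0.77. S phase genes stood at -0.36, with 4 of 26 genes above 0 (54.8% of all genes), pcna at -0.38 and mcm2 at -0.65. With only cells between the 25th and 75th percentile of raw UMIs their median was -0.92, with pcna at -0.90 and mcm2 at -1.41. elovl1b, which elongates saturated fatty acids, averaged 2.83 against 1.06 (log2 ratio 1.43) within a fatty acid synthesis list whose median was 0.09.

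**Figure D4:**
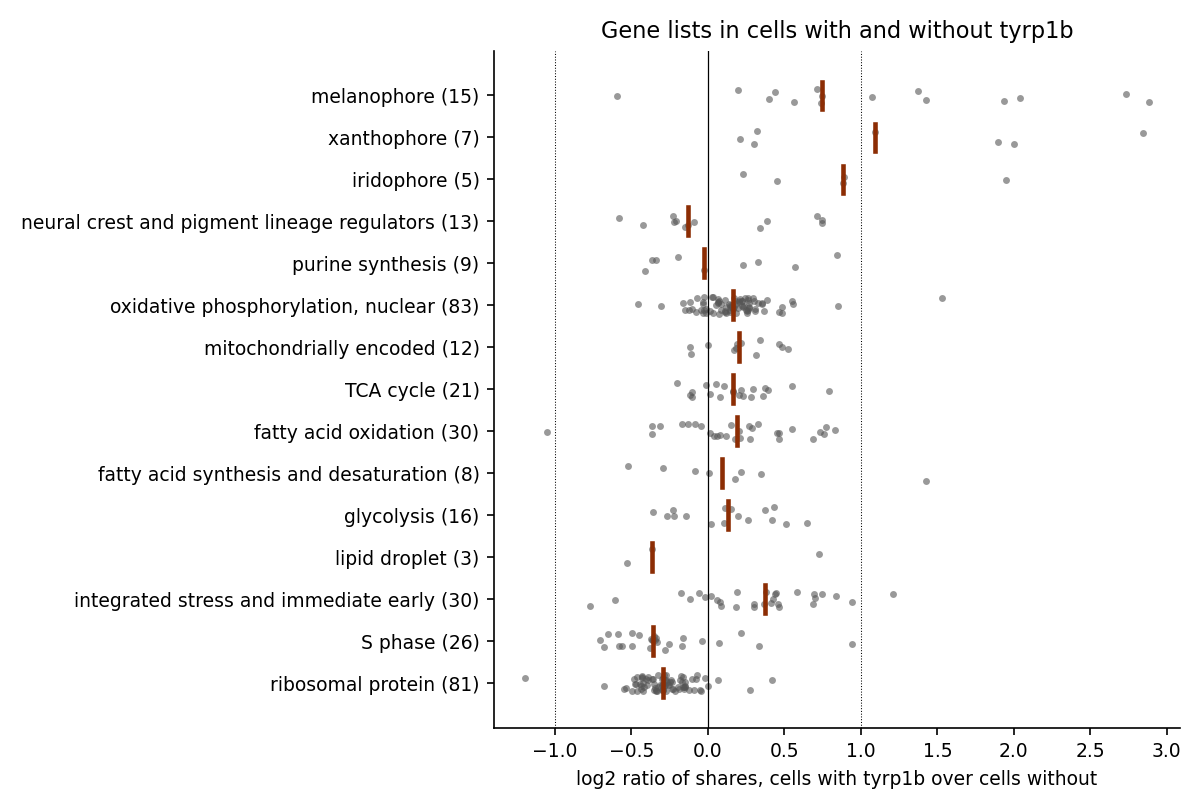
Log2 ratio of shares, cells with tyrp1b over cells without it (horizontal axis), for each gene with a sum of at least 50 (points) in 15 lists (number of genes in parentheses, tyrp1b left out); the brown bar is the list median and dotted lines mark 2-fold. The melanophore and xanthophore medians lie at 0.74 and 1.1, the ribosomal median at -0.29.

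Markers of other cell types were low in both groups. The summed macrophage list (11 genes) averaged 1.26 corrected counts with tyrp1b and 1.12 without it against 149 in TME cells, and the keratinocyte list (9 genes) 1.46 and 2.26 against 94.2. The fibroblast list averaged 1.02 and 1.21 against 31.9, and the muscle list 0.0805 and 0.0491 against 1.42. The neutrophil list averaged 0.0433 and 0.00613 against 0.0332 in TME cells, the T cell list 0.235 and 0.356 against 0.380, the erythrocyte list 0.0557 and 0.0920 against 0.102 and the endothelial list 0.00310 and 0 against 0.350, so these 4 were low in all 3 groups. The Schwann list averaged 2.66 and 3.18, of which sox10 alone gave 2.65 and 3.12. Their part in the differences between the groups was not tested.

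Set beside the other melanoma states, the cells without tyrp1b stood higher in pmela, gch2 and pah. Their mean pmela was 20.4 corrected counts, against at most 5.63 in the other 4 states, and their mean gch2 was 1.20 against at most 0.191. The gene pah averaged 0.485 in them against at most 0.0772 in those states. Because the state was clustered from these genes, the distances describe the annotation and were not tested.

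**Figure D5:**
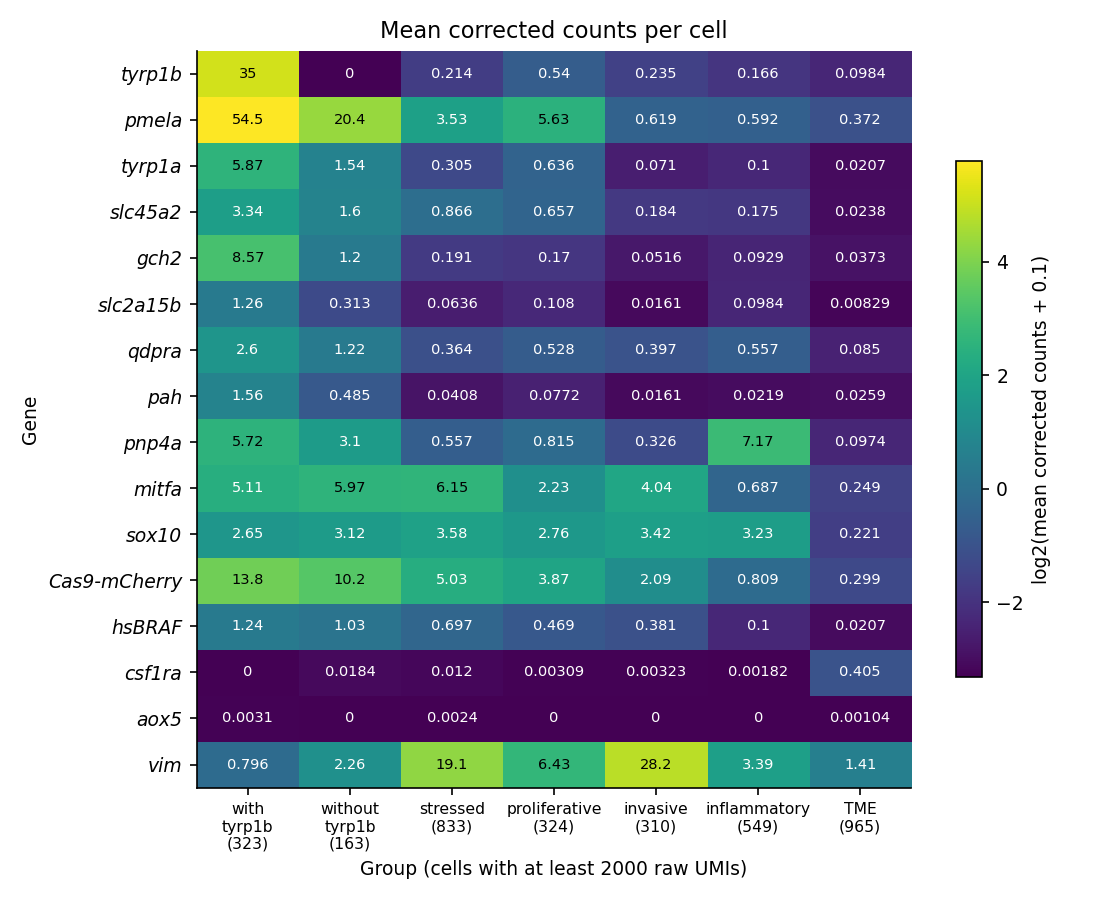
Mean corrected counts per cell of 16 genes (rows) in melanocytic cells with and without tyrp1b, in the other 4 melanoma states and in the TME (columns, number of cells in parentheses), colored by log2(mean + 0.1). Cells without tyrp1b hold pmela at 20.4 and gch2 at 1.20, above the other states, while csf1ra and aox5 stay at or below 0.0184 in all melanoma columns.

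When the 486 cells were clustered again with tyrp1b left out of the genes, no sub-cluster was made up of cells with gch2 only. The 5 sub-clusters held 130, 103, 93, 92 and 68 cells, with tyrp1b above 0 in 54.6%, 81.6%, 62.4%, 46.7% and 98.5% and gch2 in 30%, 56.3%, 55.9%, 63.0% and 88.2%. Cells with gch2 only numbered 19, 7, 11, 24 and 0 in this order, beside 20, 51, 41, 34 and 60 with both genes. The last, led by alkal2b, lmo7a and viml, was highest in mean pmela (76.7) and mean Cas9-mCherry (25.2) and held 60 cells with both genes and 0 with gch2 only, at a median of 7475 raw UMIs. The fourth, led by cart3, AL954359.2 and id1, held the most cells with gch2 only, 24, beside 34 with both, and its mean pmela was 33.7. The second, led by ccka, was the deepest at a median of 28286 raw UMIs. The third was led by the replication genes hells and pcna. Cells with aox5, csf1ra, pax7a or pax7b numbered 3, 0, 8, 9 and 0, so the fourth held 9 of 20. The sub-clusters stay unnamed, and with genes of both pigment lists also left out of the clustering, 7 sub-clusters had tyrp1b in 47.4 to 100% and gch2 in 30.5 to 89.5% of cells. At resolution 1, however, a sub-cluster of 49 cells had tyrp1b in 65.3% and gch2 in only 4 cells (8.16%, 2.27 to 19.6%).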

How the data were processed

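The deposited single-cell table held SCTransform-corrected counts, which are a model's score and not raw counts (20141 genes, 3968 cells). The authors aligned reads with Cell Ranger 6.0.2, kept cells with at least 200 genes and under 30% mitochondrial reads, and annotated states in Seurat 4.0.2. The authors' sort removed doublets before loading, which does not reach cells that share a droplet, and no caller was run here. Deposited cell metadata gave raw UMI and gene counts and the percent of mitochondrial UMIs. Deposited bulk values are a DESeq2-normalized signal.

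Planned Poisson intervals were dropped, since the values are not raw counts. Per gene, group sums (0.5 added to each) were divided by the group's total and given as a log2 ratio; genes needed a sum of at least 50, and 2-fold marked a difference. Sub-clusters came from scanpy 1.11.5 and leidenalg 0.10.2 (resolution 0.5). Python 3.11.15, scipy 1.17.1 and pandas 2.3.3 were used, and the ratio was tested on simulated data.

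Named genes are members of the melanophore, xanthophore and plasmid lists, the 12 largest ratios each way (sum at least 200, above 0 in at least 10% of the higher group's cells), and the 2 largest and the smallest of other lists, of which part are printed. Members and lists were chosen with earlier results of these data known. rps6k genes and rps19bp1 were left out of the ribosomal list, and braf, gfpt1 and gfpt2 out of the plasmid list. xdh and pmelb were not analysed in single cells.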

Additional observations from a re-analysis of the deposited data

How the results depend on the processing

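Over 14 alternatives and 3 of the clustering, 1181 values were recomputed; 1146 stayed within their limits (1.5 times for ratios and counts, the main 95% interval for shares), 35 moved, and 0 of the values that were at least 2-fold changed sign. Of 98 ratios and medians of ratios, 14 changed sign under at least 1 alternative, each under 2-fold in the main result. Of 877 single-gene values, 13 moved by over 1.5 times; among cells between the 25th and 75th percentile of depth these include lmo7a (4.73), ccka (3.69), slc24a5 (2.00), gadd45bb (1.58) and elovl6 (0.89). The alternatives without ribosomal protein genes and with gch2 at 2 or more were chosen after seeing the data. gch2 was above 0 in 61.0 to 72.0% of cells with tyrp1b and in 36.7 to 42.2% without it across the alternatives that kept its limit at 1.

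Genes at least 2-fold higher and lower numbered 72 and 18 at a sum of at least 200, 759 and 488 at a sum of at least 10, and 159 and 51 between the 25th and 75th percentile of depth, where fewer cells or fainter genes enter the sums. At 10000 raw UMIs or more 137 were higher, and 145 were lower without ribosomal protein genes. The xanthophore median was 0.32 at a sum of at least 10, and the macrophage median 0.81 at 10000 raw UMIs or more, which is the ratio of cd74a, the middle of the few genes left; the cause was not tested. tyrp1b was held by 60.9% of cells when counted from 2 and by 51.4% when counted from 5, where 72.0% of its cells held gch2. With gch2 counted from 2, 56.3% of cells with tyrp1b and 20.9% without it held gch2, 37.4% of all cells held both and 6.996% gch2 only. Clustering gave 3 sub-clusters at resolution 0.25 and 8 at resolution 1, with a highest tyrp1b share of 81.6% and 100%, and 100% with the pigment lists left out. The share of cells with gch2 ran from 45.1 to 69.3% over the sub-clusters at resolution 0.25 and from 8.16 to 89.5% at resolution 1.

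The values are 1 library of 6 pooled fish, with no replicate and no per-fish label, so the spread between tumors is unknown. Correction to a common depth can place or remove single counts. No paired analysis was possible because the single-cell values come from 1 library and no test, and the bulk values are listed without one.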

Other observations

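The same genes were listed in 6 bulk libraries of sorted cells from other tumors of the series, 3 labelled sgNT, for a control guide, and 3 labelled sgDGAT1a, for a guide against dgat1a, as DESeq2-normalized values. gch2 was at 9703, 9522 and 12339 in sgNT and 10021, 10448 and 12398 in sgDGAT1a. tyrp1b was at 9882, 10323 and 5949 in sgNT and 30970, 31433 and 272075 in sgDGAT1a, so it spanned a far wider range than gch2. The third sgDGAT1a library was the highest of the 6 in tyrp1b, in pmela (172241, lowest 50252), in tyrp1a (45330, lowest 6129) and in pah (15244, lowest 2090). In both groups libraries 1 and 2 lay close together and library 3 apart in several genes. For tyrp1a the values were 11156, 11513 and 13298 in sgNT and 6129, 6419 and 45330 in sgDGAT1a. The labels do not say whether libraries 1 and 2 came from separate tumors. Among xanthophore genes, slc2a15b ranged from 1363 to 6890, aox5 from 0.756 to 91.6, csf1ra from 304 to 1170, pax7a from 64.3 to 351 and pax7b from 9.99 to 265, and xdh was listed at 0 in 5 libraries and at 3.61 in 1. Bulk values cannot show which cells hold a gene, and fewer cells of a type cannot be told apart from less RNA per cell. Levels here are not per gene length, so they are compared only between libraries.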
